A study of Mus musculus with 6 samples.

Results

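The genes described here are 8 genes of PPARalpha signalling, fatty acid oxidation and ketone body formation: Ppara, Cpt1a, Ehhadh, Acadm, Hadha, Pdk4, Vnn1 and Bdh1. They were chosen by name, all 8 were found among the 21512 genes of the table, and all 8 passed the filter on low values. RNA came from whole liver of 6 C57BL/6J mice. All 6 were fed a high-fat diet and given carbon tetrachloride over 12 weeks, which models metabolic dysfunction-associated steatohepatitis (MASH) with fibrosis. An isotype control antibody was given to 3 of the mice and an antibody against PD-1, an inhibitory receptor of activated T cells, to the other 3, every 3 days through those weeks. No liver without the diet and carbon tetrachloride is among the libraries used here, and the labels give no age. The titles give each library its own mouse number and name PD-1 for all 3 treated mice, while the treatment entry does so for replicate 1 only and puts other numbers behind "PD" for replicates 2 and 3.

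PPARalpha is a nuclear receptor that is activated by fatty acids, pairs with RXR and binds direct repeats of a hexamer near its target genes. In the liver it is best known for switching on the response to fasting, in which fatty acids released from fat tissue are carried into mitochondria as carnitine esters, shortened by beta-oxidation and turned into ketone bodies for other organs. Peroxisomes shorten the very long and the dicarboxylic acids, and microsomal omega-oxidation makes the latter.

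Levels are CPM (counts relative to library size) of a library scaled by the trimmed mean of M-values (TMM), called units. The comparison asks how blocking PD-1 while MASH develops goes with the liver's RNA for burning fat. Depth was 15528364 to 20779319 reads per library, where 3 reads equal 0.144 to 0.2 units, a limit that covers counting error only. The hepatocyte gene Alb stood at 46646 to 69086 units in all 6 libraries. In whole liver, fewer cells of a type and less RNA per cell cannot be told apart. The summed level of 13 leukocyte markers was 320 to 520 units in the controls and 396 to 1840 units after anti-PD-1, with the highest value in anti-PD-1 replicate 1. Of the 13 markers 12 had a higher mean after anti-PD-1, a mean that includes that library. The summed markers of hepatocytes, stellate cells, cholangiocytes and endothelial cells overlapped between the groups. Heart transcripts stood in 2 control libraries and fat transcripts in 1, and isotype control replicate 1 stood apart in clock genes, as given beside Pdk4.

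None of the 8 genes changed past the threshold of 0.05 after Benjamini-Hochberg adjustment over 13990 tested genes (limma, 3 mice against 3). The same count of 0 came from edgeR and DESeq2, and in each of the 3 tools 1 of the 8, Pdk4, had an unadjusted p under 0.05. Over all tested genes limma called 0.00715% as higher in the treated mice and 0% as lower, so few calls were to be had from any list. DESeq2 called 1.05% as higher and 0.779% as lower. In limma 5.04% of genes were higher and 6.24% lower at an unadjusted p under 0.05. The members' differences were positive in 3 and negative in 5, with a median of -0.08 on the log2 scale against 0.0027 over all tested genes. The members' median ranged from -0.14 to 0.02 as each library was left out in turn.

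Ppara encodes the receptor itself. Its level was 138, 164 and 181 units in isotype control replicates 1 to 3 and 123, 176 and 120 units in anti-PD-1 replicates 1 to 3. Anti-PD-1 replicate 2 lay within the controls and the other two below them, so the groups overlapped. The means were 161 ± 21.4 and 139 ± 31.9 units (SD, n = 3 each), a log2 difference of -0.22 with a 95% interval of -0.62 to 0.18 (limma adjusted p = 0.663). As a ratio the interval runs from 0.649 to 1.13. The log2 difference was -0.40 with anti-PD-1 replicate 2 omitted and -0.12 with replicate 3 omitted.

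Cpt1a encodes the liver carnitine palmitoyltransferase, which sets the pace at which long-chain fatty acids enter mitochondria. It stood at 625, 836 and 877 units in the controls and at 773, 1117 and 977 units after anti-PD-1. The treated replicates 2 and 3 were above every control and replicate 1 was not. The means of 780 ± 135 and 956 ± 173 units (SD, n = 3 each) differed by 0.29 on the log2 scale (95% interval -0.15 to 0.74, limma adjusted p = 0.603). Without isotype control replicate 1, its lowest library, the difference was 0.14. Omitting anti-PD-1 replicate 1 instead gave 0.44.

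Acadm and Hadha act inside the mitochondrion. Acadm, the medium-chain acyl-CoA dehydrogenase, stood at 300.3, 271 and 345 units in the controls and at 285, 306 and 344 units after anti-PD-1. The groups covered nearly the same range, and the log2 difference was 0.03 (95% interval -0.26 to 0.33, limma adjusted p = 0.947). Part of the Acadm transcript, 681 of 2047 bases, is 93.5% identical to the gene model Gm5131, so reads there may have been split. Hadha, the alpha subunit of the trifunctional protein that handles long-chain intermediates, stood at 407, 372 and 432 units in the controls and at 345, 401 and 405 units after anti-PD-1. Its lowest library was anti-PD-1 replicate 1, and the difference of -0.07 (95% interval -0.34 to 0.20, limma adjusted p = 0.844) became 0.00066 without that library. For both genes the interval of the ratio stays between 0.788 and 1.26.

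Ehhadh encodes the bifunctional enzyme of peroxisomal beta-oxidation and is a classical PPARalpha target. Its level was 631, 646 and 751 units in the controls and 731, 554 and 544 units after anti-PD-1. Replicate 1 of the treated group stood among the controls, and replicates 2 and 3 lay below all of them. The means were 676 ± 65.2 and 610 ± 105 units (SD, n = 3 each), a log2 difference of -0.16 (95% interval -0.51 to 0.20, limma adjusted p = 0.731). Leaving out anti-PD-1 replicate 1 gave -0.30, and Cpt1a, Ehhadh and Pdk4 then each had an unadjusted p under 0.05 but a limma adjusted p of 0.311 to 0.324. In that fit 15.1% of all tested genes had an unadjusted p under 0.05.

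Bdh1 encodes the mitochondrial enzyme that turns acetoacetate into beta-hydroxybutyrate, the last step of ketone body formation. It stood at 250.2, 263 and 288 units in the controls and at 230, 299.6 and 278 units after anti-PD-1. The treated libraries held both the lowest and the highest of the 6 values, and the log2 difference was 0.0047 (95% interval -0.29 to 0.30, limma adjusted p = 0.994).

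Vnn1 encodes pantetheinase, which releases pantothenate and cysteamine, and is a PPARalpha target in hepatocytes. Its values of 38.4, 50.2 and 71.4 units in the controls spread on both sides of the 53.8, 47.3 and 46.0 units after anti-PD-1. The control SD was 16.7 units and that of the treated group 4.20 units (n = 3 each). The difference was -0.08 on the log2 scale (95% interval -0.56 to 0.41, limma adjusted p = 0.918), and leaving out isotype control replicate 3 turned it to 0.15.

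Pdk4 encodes a pyruvate dehydrogenase kinase, which shuts off glucose oxidation when fat is burnt. It was the only 1 of the 8 genes whose groups did not overlap: 53.0, 30.2 and 22.9 units in the controls against 21.9, 22.4 and 15.5 units after anti-PD-1. Over all tested genes 9.98% had every treated library below every control and 7.13% the opposite. The means were 35.4 ± 15.7 and 19.9 ± 3.84 units (SD, n = 3 each), a log2 difference of -0.74 (95% interval -1.42 to -0.06) with an unadjusted p of 0.0359 and a limma adjusted p of 0.411. The adjusted p was 0.190 in DESeq2 and 0.38 in edgeR. The lowest control and the highest treated library lay close together, and isotype control replicate 1 held the high end: without it the difference was -0.41, and without isotype control replicate 3 it was -1.01.

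**Figure D1:**
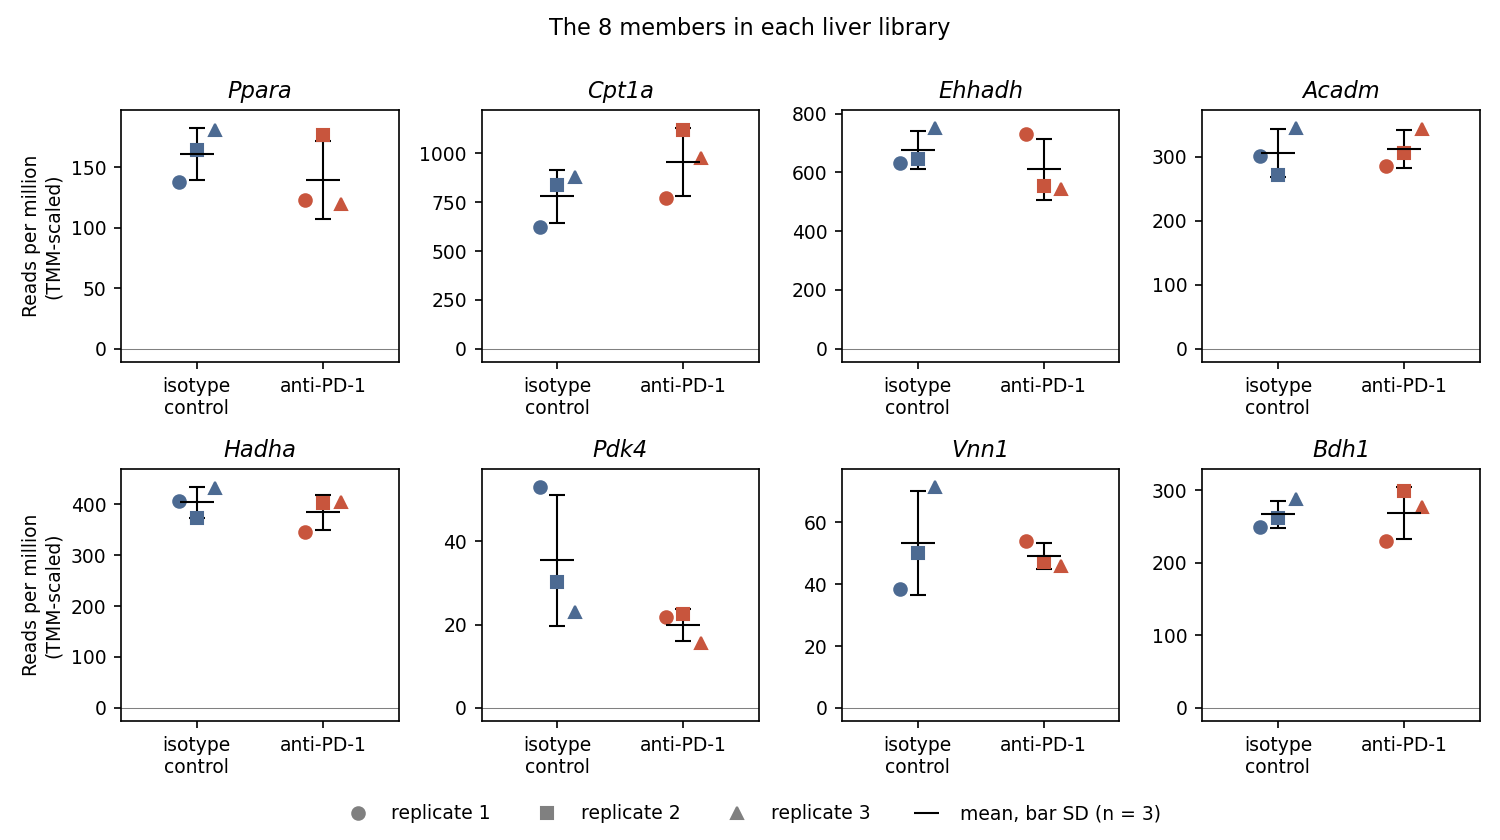
Level of each of the 8 genes in the 6 liver libraries, in CPM of a TMM-scaled library on a linear axis for each gene; symbols are the replicates, the horizontal line is the mean and the bar the SD of 3 mice. In 7 panels the groups overlap, and for Pdk4 the 3 treated libraries (15.5 to 22.4 units) sit below the 3 controls (22.9 to 53.0 units).

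The plot of levels by library shows how the spread differs between the genes. The coefficient of variation within a group ran from 7.18% for Bdh1 in the controls to 44.4% for Pdk4 in the controls. Each member had 300 to 18890 reads in a library, and at the fewest reads, those of Pdk4, counting alone gives a coefficient of variation of 5.77%.

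**Figure D2:**
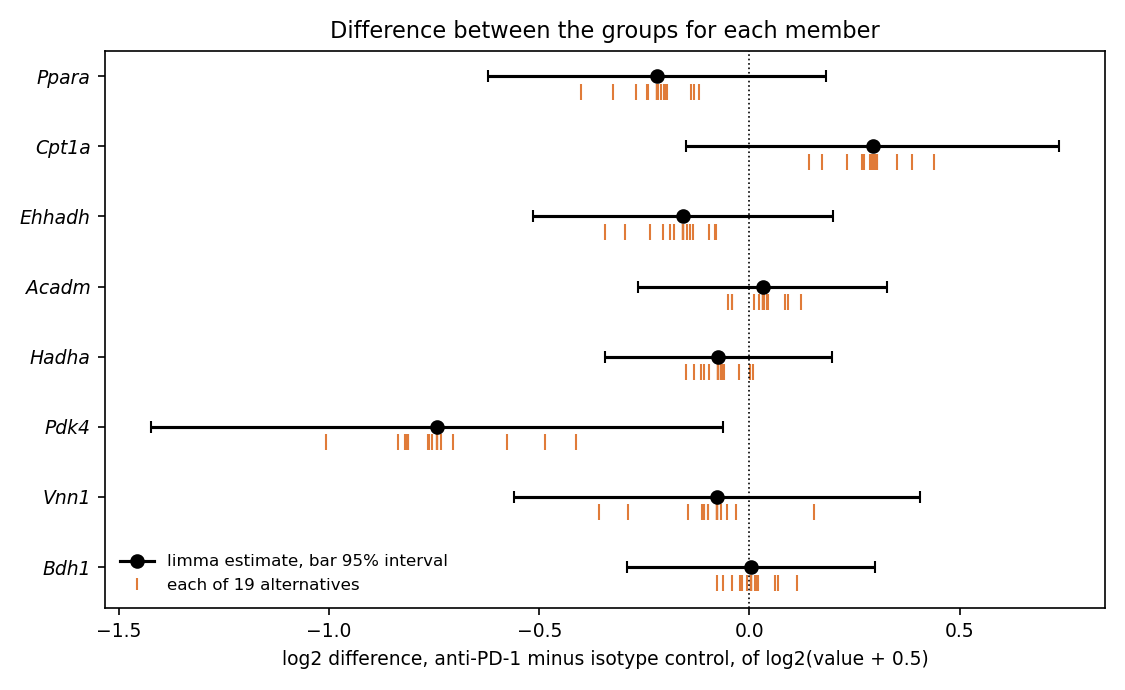
Log2 difference (anti-PD-1 minus isotype control) of the 8 genes; the point is the limma estimate, the bar its 95% interval and each short tick below it 1 of 19 alternatives. The interval of Pdk4 (-1.42 to -0.06) lies below 0, the other 7 include 0, and the ticks of Acadm, Hadha, Vnn1 and Bdh1 fall on both sides of 0.

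In the plot of differences with their alternatives, Pdk4 lies farthest from 0. Under each of the 19 alternatives 0 of the 8 genes were called, and the lowest adjusted p of any member ranged over them from 0.162, for Pdk4 with the replicate number as a block, to 0.707.

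Markers of heart, fat and the daily clock are given beside Pdk4. Myh6, a heart muscle myosin, was at 12.2, 7.85 and 0 units in the controls and at 0 in the 3 treated libraries. The summed level of 5 heart and skeletal muscle markers was 0.302 to 16.7 units in the controls and 0.517 to 0.768 units after anti-PD-1, with a higher mean for 1 of the 5 after anti-PD-1. In isotype control replicate 3, where Myh6 was 0, Pdk4 was 22.9 units, against 15.5 to 22.4 units in the treated libraries. Pdk4 is abundant in heart, and the part of heart RNA in its difference was not tested. The 4 fat cell markers summed to 17.2 units in isotype control replicate 2 and to 0 to 0.101 units in the other 5 libraries, with Adipoq, the adiponectin gene, at 0 in all 5.

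Isotype control replicate 1 stood apart in genes of the daily clock. Arntl, the clock activator also called Bmal1, was at 22.9, 4.76 and 3.87 units in the controls and at 8.93, 4.19 and 5.79 units after anti-PD-1. Dbp, an output gene with the opposite phase, was at 13.1, 64.9 and 71.4 units in the controls and at 46.4, 82.8 and 63.7 units after anti-PD-1. The 17 matched clock genes summed to 679 units in isotype control replicate 1 and to 1014.8 to 1428 units in the others. The 11 matched genes of fasting and insulin response summed to 7507 to 11938 units in the controls and to 10818 to 16990 units after anti-PD-1. The labels used here give no time of day or feeding state at collection, and neither was tested as a source of the members' differences. Without both libraries numbered 1, the Pdk4 difference was -0.49.

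**Figure D3:**
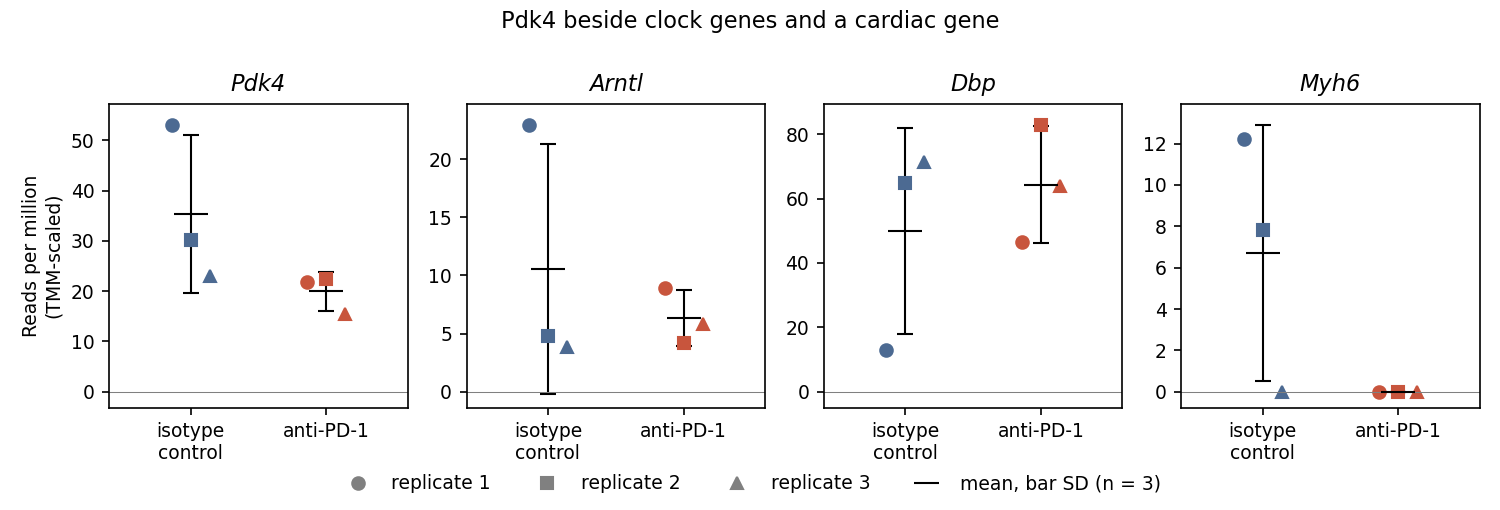
Levels of Pdk4, the clock genes Arntl and Dbp and the heart gene Myh6 in the 6 libraries, in CPM of a TMM-scaled library; the line is the mean and the bar the SD of 3 mice. Isotype control replicate 1 has the highest Pdk4, Arntl and Myh6 and the lowest Dbp, and Myh6 is at 0 in 4 libraries.

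As the plot of Pdk4 beside these genes shows, 1 library held the extreme value in all 4 panels.

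Around these 8 genes, 9 lists of the pathway held 110 other genes, of which 109 were tested and Cpt1c, a brain form of the carnitine palmitoyltransferase, was under the filter. No list gene was called by limma, 9 were higher and 15 lower at an unadjusted p under 0.05 (8.26% and 13.8% of the 109, against 5.04% and 6.24% of all tested genes). edgeR called 0 as well, with 7 higher and 14 lower at an unadjusted p under 0.05. DESeq2 called 3, with Pdp2 higher (log2 difference 0.82, DESeq2 adjusted p = 0.000334) and Crat and Fgf21 lower (-0.54, adjusted p = 0.0356, and -2.10, adjusted p = 0.0281). Fgf21 passed the filter only through the controls, as every treated library was under 1 unit. Its call and its place among the lower genes therefore carry no weight. On simulated counts DESeq2 made 48 false calls, against 11 in limma and 14 in edgeR. The limma differences of the 109 genes were positive in 62 and negative in 47, with a median of 0.03. Groups did not overlap for 6 genes that were higher and 9 that were lower (5.50% and 8.26%), both below the shares of 7.13% and 9.98% over all genes. The counts at an unadjusted p under 0.05 depended on single libraries: omitting anti-PD-1 replicates 1, 2 or 3 gave 23 and 14, 4 and 8, or 4 and 7, and omitting isotype control replicate 3 gave 9 and 8. Over all tested genes the same omissions gave 1121 and 988, 653 and 689, 476 and 536, and 610 and 667, against 705 and 873 with all 6 libraries.

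**Figure D4:**
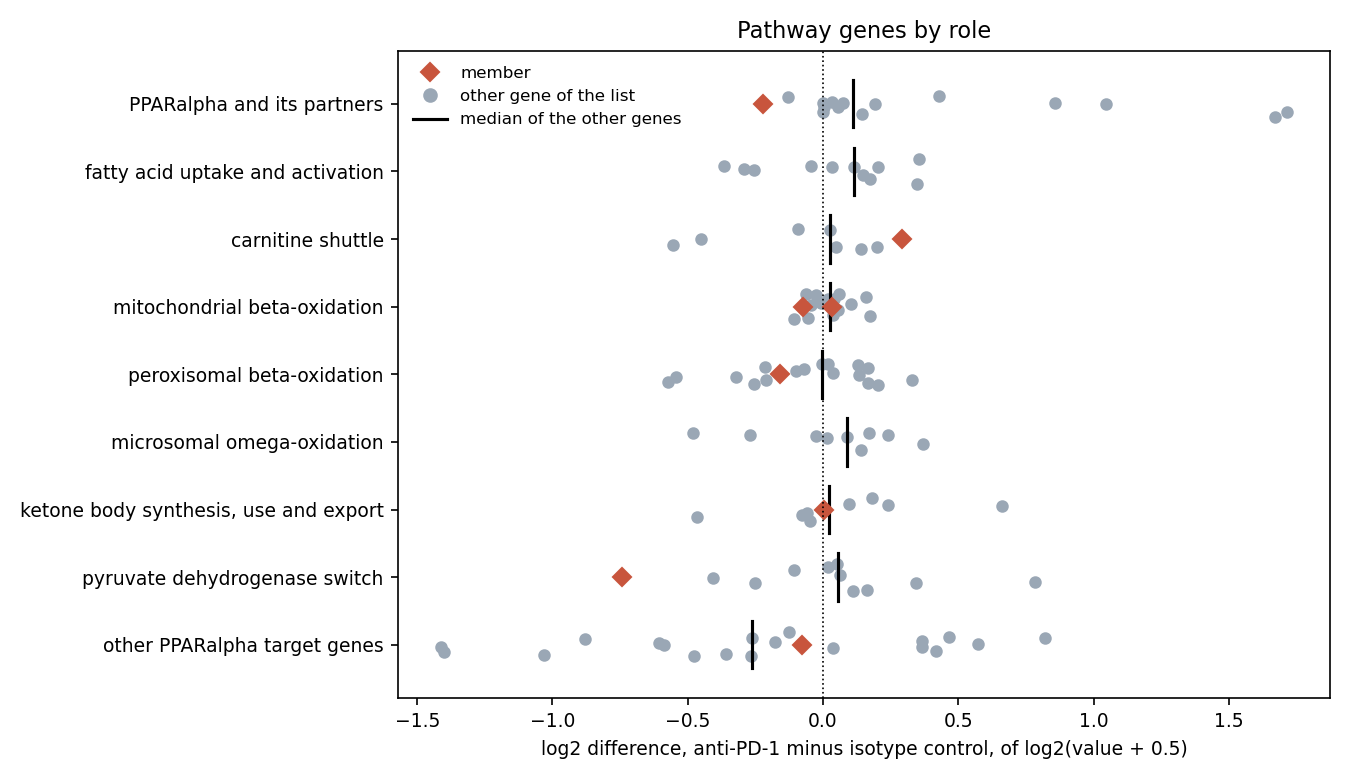
Log2 difference (anti-PD-1 minus isotype control) of the tested genes of the 9 lists, 1 row a list; diamonds are the 8 members, circles the 109 other genes and the bar their median in the list. The 14 mitochondrial genes lie closest together, between -0.11 and 0.17, and the 19 other PPARalpha targets spread widest, between -1.41 and 0.82.

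The plot by role shows the partners of the receptor on its upper row. Among them 11 of 14 differences were positive, with a median of 0.11 (0.04 if anti-PD-1 replicate 2 is omitted, 0.20 if replicate 1 of that group is). At an unadjusted p under 0.05, 4 were higher and 0 lower (28.6% and 0%, against 5.04% and 6.24% of all tested genes). Ppargc1a encodes PGC-1alpha, a coactivator of PPARalpha that fasting induces in liver. It stood at 18.2, 61.9 and 68.1 units in the controls and at 99.6, 171 and 165 units after anti-PD-1. Every treated library was above every control, the log2 difference was 1.72 ± 0.48 (SE) and the limma adjusted p 0.279. Isotype control replicate 1, the library that stood apart in clock genes, was the lowest: without it the difference was 1.12 (limma adjusted p = 0.387). Without both libraries numbered 1 the difference was 1.37 with a limma adjusted p of 0.0104. That fit was added once the data had been seen, and it called 133 of all tested genes, against 1 in the main fit. In the other alternatives the lowest adjusted p of Ppargc1a was 0.0622, in limma with the replicate number as a block.

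Ppargc1b, a second coactivator of this family, was at 6.31, 11.3 and 13.3 units in the controls and at 14.1, 29.4 and 21.8 units after anti-PD-1. The nearest values of the groups lay close together, and the log2 difference was 1.05 (limma adjusted p = 0.319). Rxra, the partner with which PPARalpha binds DNA, was at 432 to 459 units in the controls and at 407 to 533 units after anti-PD-1, with overlapping groups. Lpin1, chosen after its values were seen, is a PGC-1alpha partner and also had an unadjusted p under 0.05. It stood at 71.5, 315 and 529 units in the controls and at 450, 872 and 989 units after anti-PD-1. Its groups overlapped, and the log2 difference was 1.67 (limma adjusted p = 0.416). Isotype control replicate 1 was again the lowest library. Without it the Lpin1 difference was 0.84 (limma adjusted p = 0.631), and without isotype control replicate 3 it was 2.28.

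For uptake and activation of fatty acids, 7 of 11 differences were positive and none had an unadjusted p under 0.05. Their median of 0.12 moved to 0.0013 on omitting anti-PD-1 replicate 3 and to 0.21 on omitting replicate 1 of that group. Acsl1, the main acyl-CoA synthetase of liver, was at 1259, 1195 and 1108 units in the controls and at 1212, 1708 and 1661 units after anti-PD-1 (log2 difference 0.35, limma adjusted p = 0.496). Like Cpt1a, it was above every control in treated replicates 2 and 3 and not in replicate 1. Acsl5 and the fatty acid translocase Cd36 had differences of -0.29 and -0.26 (limma adjusted p = 0.478 and 0.558), and that of Cd36 was -0.42 with anti-PD-1 replicate 1 omitted and -0.17 with replicate 3 omitted.

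In the carnitine shuttle, 4 of 7 differences were positive. At an unadjusted p under 0.05, 2 genes were lower (28.6%, against 6.24% of all tested genes). Crat, carnitine acetyltransferase, which moves acetyl groups on and off carnitine, stood at 75.3, 64.7 and 68.5 units in the controls and at 54.1, 46.2 and 41.7 units after anti-PD-1. All treated libraries were lower, with a log2 difference of -0.55 ± 0.12 (SE, limma adjusted p = 0.244). Acacb, the acetyl-CoA carboxylase whose product inhibits Cpt1a, had a difference of -0.45 with overlapping groups (limma adjusted p = 0.393). Cpt2, which takes over from Cpt1a inside the mitochondrion, stood at 129 to 138 and 134 to 162 units, and the carrier Slc25a20 at 86.0 to 104 and 86.2 to 92.6 units.

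Mitochondrial beta-oxidation had the narrowest range of differences of the 9 lists. Of 14 genes 8 differences were positive and 6 negative, all between -0.11 and 0.17, and 0 had an unadjusted p under 0.05 in limma. Acadvl, the very-long-chain dehydrogenase, had a difference of -0.04 (95% interval -0.38 to 0.29), and Acad11, Acad10 and the enoyl-CoA hydratase Echs1 had 0.17, 0.16 and 0.10. With 1 library left out these ranged from 0.11 to 0.29 for Acad11 and from 0.06 to 0.28 for Acad10, lowest without anti-PD-1 replicate 2. The range for Echs1 was 0.00048, without isotype control replicate 2, to 0.20. All 3 were highest when anti-PD-1 replicate 1 was omitted. The median of 0.03 moved to -0.06 on omitting isotype control replicate 2 and to 0.08 on omitting anti-PD-1 replicate 1.

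Among the peroxisomal genes 8 of 17 differences were positive. At an unadjusted p under 0.05, 3 genes were lower (17.6%, against 6.24% of all tested genes). All 3 had groups that did not overlap (17.6%, against 9.98% of all tested genes with every treated library lower). Pex11a, a PPARalpha target that drives peroxisome division, stood at 47.4, 55.2 and 70.5 units in the controls and at 36.1, 40.2 and 38.1 units after anti-PD-1 (log2 difference -0.57, limma adjusted p = 0.269). Abcd2, a peroxisomal importer of very long acids, stood at 53.8, 57.2 and 81.2 units against 48.0, 39.3 and 42.3 units (-0.55, limma adjusted p = 0.312). Hsd17b4, the second bifunctional enzyme of peroxisomes beside Ehhadh, stood at 536, 454 and 521 units against 384, 393 and 430.3 units (-0.32, limma adjusted p = 0.374).

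Of the 9 genes of microsomal omega-oxidation 6 differences were positive. At an unadjusted p under 0.05, 1 gene was higher and 1 lower (11.1% each, against 5.04% and 6.24% of all tested genes). Cyp4a14, a fatty acid hydroxylase and PPARalpha target, stood at 795, 824 and 705 units in the controls and at 718, 552 and 429 units after anti-PD-1 (log2 difference -0.48, limma adjusted p = 0.414). Only anti-PD-1 replicate 1 overlapped with the controls, and the difference was -0.30 with anti-PD-1 replicate 3 omitted. Cyp4f15 had a difference of 0.37 (limma adjusted p = 0.414) and the fatty aldehyde dehydrogenase Aldh3a2 one of -0.27 (limma adjusted p = 0.522). Near-identical copies of Cyp4a10, Cyp4a12a, Cyp4a12b, Cyp4a31 and Cyp4a32 make reads of those genes uncertain.

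Of the 8 other genes of ketone body synthesis, use and export, 4 differences were positive. Bdh2 had a difference of 0.24 (limma adjusted p = 0.705), which was 0.09 with anti-PD-1 replicate 3 omitted and 0.46 with replicate 1 omitted. Among the monocarboxylate transporters, Slc16a6, which exports ketone bodies from liver, had a difference of 0.66 (limma adjusted p = 0.366) and Slc16a1 one of -0.47 (limma adjusted p = 0.525), with isotype control replicate 1 the highest Slc16a1 library at 129 units. Omitting that library gave -0.17 for Slc16a1.

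At the pyruvate dehydrogenase switch, which Pdk4 closes, the other 10 genes had 7 positive differences. Pdp2, the phosphatase that reopens the enzyme, stood at 71.4, 76.3 and 74.3 units in the controls and at 99.9, 144 and 144 units after anti-PD-1. All treated libraries were higher, by 0.78 ± 0.15 on the log2 scale (SE, 95% interval 0.43 to 1.14), with a limma adjusted p of 0.215. Leaving out anti-PD-1 replicate 1 gave 0.96 with a limma adjusted p of 0.0244. Pdk1, a kinase like Pdk4, and Dlat, the acetyltransferase core of the enzyme, were lower in every treated library, with differences of -0.25 and -0.41 (limma adjusted p = 0.424 and 0.286).

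Of the 19 other PPARalpha targets 12 differences were negative and 7 positive, with a median of -0.26. At an unadjusted p under 0.05, 7 were lower and 2 higher (36.8% and 10.5%, against 6.24% and 5.04% of all tested genes). Without anti-PD-1 replicate 1 these counts were 5 and 3, where 7.06% and 8.01% of all tested genes passed. The median moved to -0.11 on omitting anti-PD-1 replicate 1 and to -0.40 on omitting isotype control replicate 2. Fgf21, a hormone that the fasting liver secretes, stood at 4.80, 1.3 and 2.41 units in the controls and at 0.768, 0.666 and 0.517 units after anti-PD-1. These levels rest on as few as 10 reads, and Fgf21 passed the filter of 1 unit in 3 libraries only through the controls. It is among the lower genes counted above. Isotype control replicate 1 was the highest: the log2 difference was -1.40 with all 6 libraries (limma adjusted p = 0.279). Without that library it was -0.998 (limma adjusted p = 0.529). Acot1, a cytosolic thioesterase induced by PPARalpha, stood at 18.8 to 19.6 units against 9.92 to 15.3 units (-0.61, limma adjusted p = 0.270), and it is 95.1% identical to Acot2 over 1274 bases.

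Angptl4, a PPARalpha target that inhibits lipoprotein lipase, had the opposite sign. It stood at 44.1, 37.6 and 39.7 units in the controls and at 41.2, 63.0 and 67.7 units after anti-PD-1 (log2 difference 0.47, limma adjusted p = 0.414). Tsku, a secreted protein of liver, had a difference of -0.88 with overlapping groups (limma adjusted p = 0.348).

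**Figure D5:**
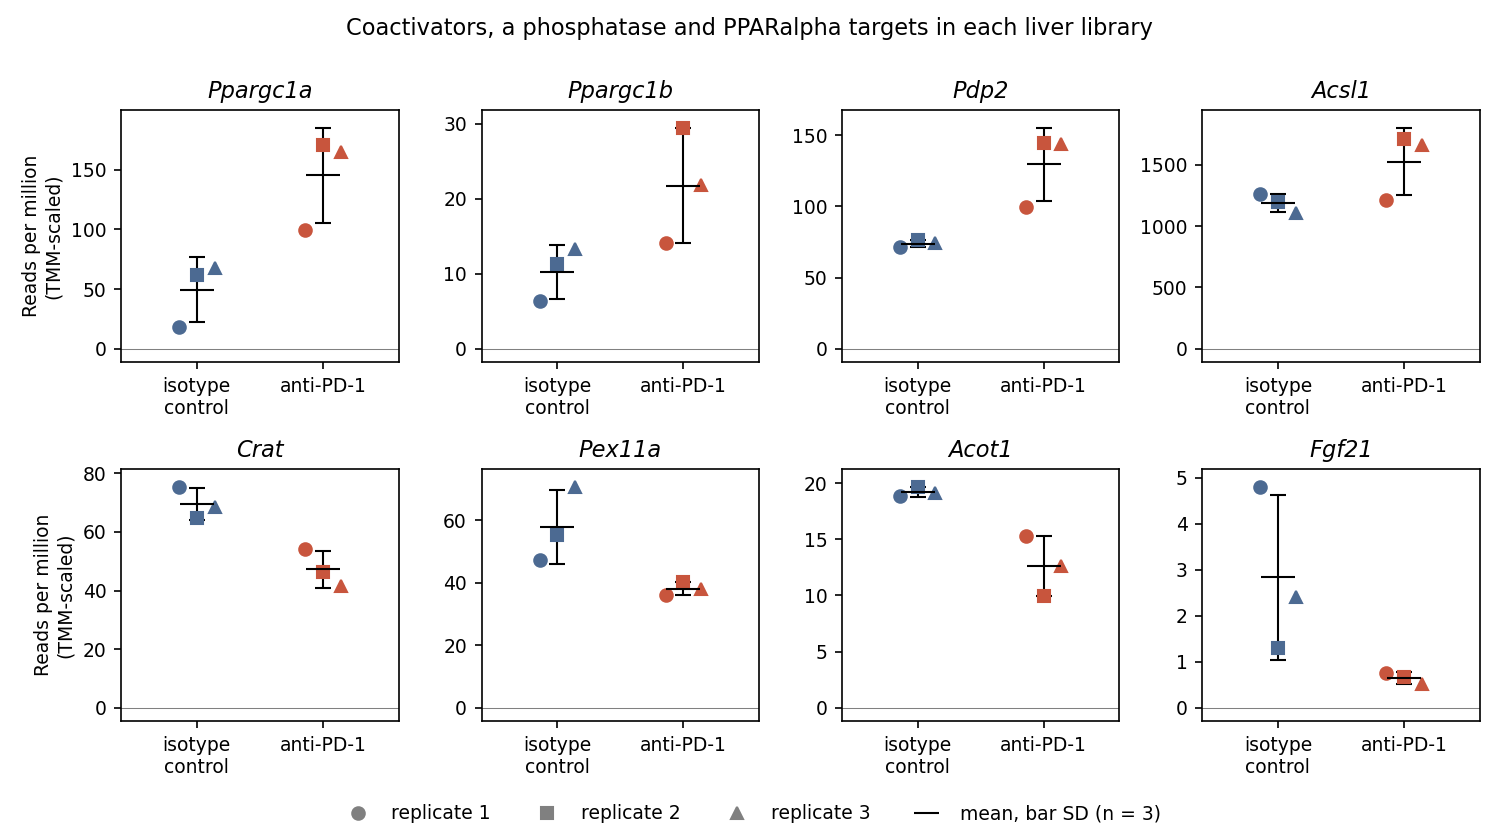
Levels of the coactivator genes Ppargc1a and Ppargc1b, the phosphatase gene Pdp2, Acsl1, Crat, Pex11a, Acot1 and Fgf21 in the 6 libraries, in CPM of a TMM-scaled library; the line is the mean and the bar the SD of 3 mice. Ppargc1a, Ppargc1b and Pdp2 are higher and Crat, Pex11a, Acot1 and Fgf21 lower in every treated library, while Acsl1 in anti-PD-1 replicate 1 (1212 units) lies among the controls.

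The plot of these 8 genes by library shows that anti-PD-1 replicate 1, which had the highest sum of leukocyte markers, lay nearest to the controls for Ppargc1a, Ppargc1b, Pdp2, Acsl1, Crat, Acot1 and Fgf21. The same library also had the lowest sum of clock genes in the treated group, at 1014.8 units against 1428 and 1246 units in replicates 2 and 3. Its Arntl was the highest and its Dbp the lowest of that group. Neither the part of leukocyte RNA nor that of the daily clock in these levels was tested.

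The promoters of the members were searched for the hexamer that PPARalpha and other nuclear receptors bind. RefSeq (GRCm38.p6) gave 8 promoters for 7 of the 8 genes, with no entry for Vnn1. AGGTCA, read on both strands in the 250 bases before the start, was found for 2 of the 7 genes, Cpt1a and Acadm, and in 14.0% of all 32851 promoters. The repeat of that hexamer with 1 base between, searched as AGGNCANAGGNCA on both strands, was in 0 member promoters, in 0.338% of all promoters and in 1 of 105 promoters of the other pathway genes, that of Fabp1. A repeat match also holds the hexamer wherever a unit reads AGGTCA. The matches of the members and the Fabp1 match, a known PPARalpha target shown for the whole repeat, are given 5′ to 3′ on the gene's strand with the matched bases, which lie on the opposite strand, in capitals.
Cpt1a, chr19:3323170-3323249, plus strand, match 94 to 89 bases before the start: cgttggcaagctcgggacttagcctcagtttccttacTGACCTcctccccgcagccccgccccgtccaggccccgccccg
Acadm, chr3:153944814-153944893, minus strand, match 249 to 244 bases before the start: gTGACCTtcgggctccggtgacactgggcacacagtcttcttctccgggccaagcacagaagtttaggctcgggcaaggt
Fabp1, chr6:71199779-71199858, plus strand, match 67 to 55 bases before the start: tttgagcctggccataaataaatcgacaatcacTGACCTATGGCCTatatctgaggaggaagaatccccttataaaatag
A match describes these letters and does not by itself show binding, which was not tested. The absence of a match covers only the 250 bases searched and does not show that a gene lacks a site. With the repeat in 0.338% of all promoters, a match among so few member promoters was unlikely in any case. Fabp1, the liver fatty acid binding protein, stood at 528, 521 and 1058 units in the controls and at 517, 478 and 547 units after anti-PD-1, with overlapping groups (log2 difference -0.37, limma adjusted p = 0.633). Omitting isotype control replicate 3, its highest library, gave -0.03.

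The 8 genes did not share a profile across the 6 libraries. Likeness was measured as the root mean square difference of log2 values after centring each gene on its mean over the libraries, among 13950 genes with a symbol. The closest members were Acadm and Hadha, 0.0819 apart, and Hadha was still only 486th in order from Acadm. Pdk4 was farthest from the rest: its nearest member was Ehhadh, 0.533 away and 4976th in order. The 3 nearest genes of each member were Chaf1a, Adcy6 and Dact2 for Ppara, Sik3, Rapgef1 and Adcy9 for Cpt1a, and Plekhh3, Myl12b and E030013I19Rik for Ehhadh. For Acadm they were Eif3c, Ppp1cb and Dstn, for Hadha Cyc1, Ppp2cb and Ngly1, and for Bdh1 Bckdhb, Mapk8 and P4hb. For Pdk4 they were A530020G20Rik, Fzd7 and 9130023H24Rik, the nearest at 0.0994, and for Vnn1 Snhg6, Uqcr11 and Fam107b. No member was among the 3 nearest genes of another member.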

How the data were processed

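Libraries were made by ribosomal RNA depletion with a directional kit, per the labels' protocols. Trimmomatic 0.38, Bowtie2, RSEM 1.3.0, edgeR and GRCm39 are listed in the submitters' processing notes, which state neither role nor order. The authors deposited a normalized signal for each gene in each library, scaled as CPM of a TMM-scaled library. Its values were whole multiples of 1 read for 100% of entries within 0.001 read, so reads were recovered; whether these are observed or rounded estimates cannot be seen. Symbols matched 21407 identifiers, and 0 columns were left unmapped.

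The members and gene lists were chosen with earlier results of these data known. Genes at 1 unit or more in at least 3 libraries were tested with limma 3.58.1 (R 4.3.3, intensity trend) on log2(value + 0.5), two-sided, with Benjamini-Hochberg adjustment. On that scale changes of low genes are understated. The limma p-values set each group difference against the spread between mice within the groups. Each gene's variance was first drawn toward that of genes at similar levels. An exact permutation of 3 against 3 cannot go below 0.1. Named genes were the 8 members, up to 3 genes of smallest unadjusted p from each of 9 lists, 12 preset genes and the 3 nearest profiles of each member; some genes that this rule names are not reported here, and others are said to be chosen after their values were seen. Alternatives changed the pseudocount, filter, scaling and limma settings, left out libraries, or ran edgeR 4.0.16 and DESeq2 1.42.0 on recovered reads. The fit that omits replicate 1 of both groups was added once the data had been seen. The fits were tested on simulated counts of 13990 genes, with 50 genes changed at each fold size. There limma recovered 6% of 1.5-fold, 46% of 2-fold and 90% of 4-fold changes, with 11 false calls. DESeq2 recovered 30%, 60% and 96%, with 48 false calls. BLAST 2.17.0 compared transcripts.

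Libraries sharing a replicate number deviated together from their groups (correlations of 0.149, 0.135 and 0.251, each over 0.1), which met the rule for pairing. The reported values come from an unpaired fit, and blocking on the number was an alternative. The labels name no shared litter, cage or day, so any pairing rests on the values alone.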

Additional observations from a re-analysis of the deposited data

How the results depend on the processing

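With 3 mice a group the spread between mice limited precision: the within-group coefficient of variation of the members was 7.18 to 44.4%, against at most 5.77% from counting. No alternative called a member. The replicate block changed no call among the members or the other pathway genes, but moved the count over all tested genes from 1 to 40 (27 higher, 13 lower). That count was 0 in edgeR (794 higher and 832 lower at an unadjusted p under 0.05), 256 in DESeq2, 133 without both libraries numbered 1, and 0 to 30 with 1 library left out. Pathway genes called were 3 in DESeq2, among them Fgf21, which passed the filter only through the controls. Without both libraries numbered 1 they were 7 (Acot3, Acot4, Angptl4, Cidec, G0s2, Pdp2 and Ppargc1a). They were 0 to 1 with 1 library left out, where Pdp2 passed without anti-PD-1 replicate 1. The pathway median was -0.0272 to 0.0856 with 1 library left out. Of 38 named genes in 19 alternatives, 6 changed sign somewhere, and the cause was not tested. With 1 library left out the ranges were -0.0502 to 0.122 for Acadm, -0.13 to 0.00066 for Hadha, -0.29 to 0.15 for Vnn1, -0.0775 to 0.114 for Bdh1, -0.0113 to 0.183 for Rxra and -0.155 to 0.0599 for Acadvl. Scaling to the library total gave -0.0167 for Bdh1, and quantile normalization -0.0621 for Bdh1 and -0.0409 for Acadm. Without both libraries numbered 1, Hadha was 0.0075 and Acadvl 0.10.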
